A study of Homo sapiens with 24 samples.

Results

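The genes described here serve protein folding in the endoplasmic reticulum (ER) and the unfolded protein response. They are 32 named genes of the 19775 genes measured, and all 32 were found on the array. Each was followed through its brightest probe set among those that the platform annotation ties to 1 gene symbol. The 32 fall into 17 ER chaperones and folding enzymes, 8 genes of ER-associated degradation, 4 genes of stress sensing (the sensors ERN1, EIF2AK3 and ATF6 with the transcription factor XBP1) and 3 genes of the translocon. The list groups genes by function, and it was chosen with earlier results of these data known.

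Proteins bound for the cell surface or for secretion enter the ER through the SEC61 channel and are folded there by HSPA5 (BiP), HSP90B1 (GRP94), the lectins calreticulin and calnexin and the protein disulfide isomerases. Proteins that fail to fold are passed back to the cytosol and destroyed by ER-associated degradation. When unfolded proteins build up, IRE1 (ERN1) splices XBP1 mRNA, PERK (EIF2AK3) slows translation and favours ATF4, and ATF6 is cut in the Golgi to release a transcription factor. XBP1 and cleaved ATF6 raise chaperone and degradation genes through ER stress elements in their promoters, and secretory cells of the intestinal lining depend on this system.

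RNA was measured in HCT15 and HT115, human colorectal cancer cell lines that carry loss-of-function mutations in the kinase MLK4 (gene symbol MAP3K21), a mixed-lineage kinase upstream of JNK. Each line came as 2 derivatives in which tetracycline induces MLK4, 1 with the wild-type (WT) form and 1 with a mutant form that served as the study's control, Y330H in HCT15 and E314K in HT115. Every derivative was sampled 3 times with the label Tet, which stands for 24 h of tetracycline, and 3 times without it. The latter are called untagged, because the labels do not say what they received, nor whether a derivative is 1 clone or a pool or whether replicates were separate cultures. P-values therefore measure the spread between these arrays, which may be technical.

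Signals are log2 values of an Affymetrix U133 Plus array, 24 arrays in all, and 3 arrays per group limit the precision of every value. Array medians lay between 6.38 and 6.48 on 18 arrays but between 5.55 and 5.61 on the 6 arrays of HT115 WT, which therefore form a scale of their own and were never set against the rest by level. The single MAP3K21 probe set ran from 10.64 to 10.90 in untagged and from 10.36 to 10.78 in Tet arrays of HCT15 WT, and from 10.17 to 10.29 and from 9.95 to 10.22 in HT115 WT. It did not read the induction, and where it lies relative to the introduced sequence is not known here, so Tet is taken from the labels. Of 10 colon epithelial markers CDH1, EPCAM, KRT8 and KRT18 lay at the 96th to 99.7th percentile of genes over the 18 arrays. The other 6 were lower there, from percentile 36.3 (KRT20) to 76.1 (CDX2). A further 6 of 7 listed plasma cell and lymphocyte markers were measured, and their summed linear signal was 123 to 152 in every one of those 18 arrays. In bulk RNA a smaller share of some cells and less RNA per cell cannot be told apart.

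ER stress elements in the promoters are shown first because they mark which members carry the sequence through which XBP1 and ATF6 are known to act. RefSeq start sites (GRCh38.p14) were found for 29 of the 32 members. The 250 bases before each start were searched on both strands for the ER stress element ERSE, the shorter ERSE-II and the unfolded protein response element UPRE (TGACGTGG). A match at every fixed letter of ERSE was found in 8 members and in 25 of 27305 genes (0.0916%), and ERSE-II in 3 members and in 18 genes (0.0659%). UPRE was found in 1 member, HYOU1, where it overlaps an ERSE-II, and in 0.78% of genes. The sites are written 5′ to 3′ on the strand that reads as the motif, with its fixed letters in capitals and the bases it leaves free in lower case. The last 4 lines are ERSE-II and the lines before them ERSE.
HSPA5, chr9:125241391-125241409, minus strand: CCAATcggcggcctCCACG
HSP90B1, chr12:103930321-103930339, minus strand: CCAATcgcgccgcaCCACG
HSP90B1, chr12:103930216-103930234, plus strand: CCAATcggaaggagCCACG
CALR, chr19:12938384-12938402, minus strand: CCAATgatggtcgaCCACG
CANX, chr5:179698778-179698796, plus strand: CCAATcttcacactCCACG
PDIA6, chr2:10812853-10812871, minus strand: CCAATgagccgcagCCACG
CRELD2, chr22:49918554-49918572, minus strand: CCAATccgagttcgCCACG
ERO1B, chr1:236282183-236282201, plus strand: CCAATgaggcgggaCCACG
XBP1, chr22:28800603-28800621, minus strand: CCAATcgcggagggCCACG
SDF2L1, chr22:21642114-21642124, minus strand: ATTGGtCCACG
HYOU1, chr11:119057274-119057284, plus strand: ATTGGaCCACG
HYOU1, chr11:119057380-119057390, plus strand: ATTGGaCCACG
HERPUD1, chr16:56932025-56932035, plus strand: ATTGGgCCACG
Of the 11 genes that hold a site, 9 are chaperones or folding enzymes, 1 is a degradation gene (HERPUD1) and 1 is XBP1. None of the 3 sensors or the 3 translocon genes held one. A match is a string of letters and not evidence that a factor binds there.

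The question put to HCT15 WT was which ER genes move when wild-type MLK4 is switched on. The folding genes lay lower in Tet arrays, by a small amount each. All 17 chaperone and folding genes had a mean change below zero, with a median of -0.17 on the log2 scale, beside -0.03 over all genes, of which 58.1% were below zero. The 4 sensing genes were all above zero, with a median of 0.19, and the 8 degradation genes split evenly, with a median of 0.00.

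In limma's fit of the 8 group means 0 of the 32 members were called at an adjusted p under 0.05, while 0.698% of all genes were (0.612% higher and 0.086% lower). Unadjusted, 5 members (CALR, PDIA4, PDIA6, DERL1 and OS9) had a p under 0.05, as did 1851 of the 19775 genes. Same-numbered HCT15 arrays deviated together and count as pairs. In the fit with the replicate block 3 members fell, namely CRELD2, PDIA4 and CALR, and none rose. That fit called 4.86% of all genes, 1.72% as lower.

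CRELD2 encodes an ER-resident protein with EGF-like repeats that ER stress is known to induce. Its signal was 11.38, 11.73 and 11.61 in the untagged arrays numbered 1, 2 and 3 and 10.97, 11.20 and 11.14 in the Tet arrays. The groups did not overlap, and the fall within pairs was even, at -0.40, -0.53 and -0.47. The change was -0.47 ± 0.24 (SE, n = 3 against 3) without the block (limma adjusted p = 0.568) and -0.47 ± 0.07 with it (limma adjusted p = 0.00301). Array 1 was the lowest of its group on both sides.

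PDIA4 (ERp72) is a disulfide isomerase. It read 12.44, 12.58 and 12.53 in untagged arrays and 12.00, 12.13 and 12.31 in Tet arrays, again with no overlap. The change was -0.37 ± 0.13 (SE), with a limma adjusted p of 0.274 without the block and 0.0104 with it. Its other probe set gave -0.35.

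CALR encodes calreticulin, the calcium-binding lectin chaperone. Untagged arrays stood close together at 12.14, 12.18 and 12.20, and Tet arrays at 11.64, 11.84 and 12.01. The fall was largest in pair 1 (-0.50) and smallest in pair 3 (-0.19). The mean change was -0.34 ± 0.10 (SE), with a limma adjusted p of 0.133 without the block and 0.0222 with it. The probe set is of a kind that can cross-hybridise, and the gene's specific probe set gave -0.25 (limma adjusted p = 0.822 without the block).

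The 3 calls varied with the pair left out. In the blocked fit without both arrays numbered 1, CRELD2 alone was called (limma adjusted p = 0.0174). Without those numbered 2, none was called (CRELD2 limma adjusted p = 0.051), and without those numbered 3 all of them were.

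Their promoters are given here because 2 of the 3 genes hold an ERSE and PDIA4 holds none in this window. Each runs 5′ to 3′ along the gene's strand and ends at the base before the start site, and capitals mark an ERSE, written as the reverse complement where the motif reads on the other strand.
CRELD2, chr22:49918384-49918633, plus strand: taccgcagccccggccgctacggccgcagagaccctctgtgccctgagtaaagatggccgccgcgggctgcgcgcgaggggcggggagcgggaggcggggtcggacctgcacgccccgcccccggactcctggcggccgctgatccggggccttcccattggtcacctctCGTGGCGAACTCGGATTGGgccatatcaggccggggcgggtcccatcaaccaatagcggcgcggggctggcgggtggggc
CALR, chr19:12938359-12938608, plus strand: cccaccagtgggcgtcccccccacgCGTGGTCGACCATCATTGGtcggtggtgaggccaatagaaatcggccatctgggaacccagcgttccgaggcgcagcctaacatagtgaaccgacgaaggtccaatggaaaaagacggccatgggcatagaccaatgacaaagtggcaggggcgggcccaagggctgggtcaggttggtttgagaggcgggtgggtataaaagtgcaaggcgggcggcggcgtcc
PDIA4, chr7:149028491-149028740, minus strand: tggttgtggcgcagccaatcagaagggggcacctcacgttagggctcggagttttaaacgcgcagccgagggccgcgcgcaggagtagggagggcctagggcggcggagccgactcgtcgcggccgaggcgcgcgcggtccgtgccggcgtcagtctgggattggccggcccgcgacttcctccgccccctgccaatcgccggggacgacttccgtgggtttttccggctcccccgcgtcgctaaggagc
The ERSE began 80 bases before the start in CRELD2 and 225 bases before it in CALR. In both it reads on the strand opposite to the gene.

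ERO1B, an oxidase that recharges disulfide isomerases, had the lowest mean change after CRELD2 but was not called. It read 9.93, 9.52 and 9.49 without Tet and 9.26, 9.11 and 9.24 with it, a change of -0.44 ± 0.25 (SE; limma adjusted p = 0.619, and 0.111 with the block). HYOU1, an ER relative of Hsp70, read 10.24, 10.42 and 10.29 untagged and 9.89, 10.13 and 10.17 with Tet, a change of -0.25 ± 0.19 (limma adjusted p = 0.760, and 0.113 with the block). Neither gene's groups overlapped, and neither passed the test.

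HSPA5, the Hsp70 chaperone that is the usual readout of the response, hardly differed. It read 12.98, 12.85 and 12.85 in untagged and 12.92, 12.83 and 12.87 in Tet arrays, a change of -0.02 ± 0.11 (limma adjusted p = 0.978). HSP90B1, its Hsp90 partner, changed by -0.09 ± 0.10, but its other probe set gave -0.33. The remaining folding genes lay between -0.21 and -0.03: SDF2L1, DNAJB9, DNAJB11 and DNAJC3, which are co-chaperones of HSPA5 or partners of them, calnexin (CANX), which retains glycoproteins, the isomerases PDIA3, PDIA6 and P4HB, the secreted factor MANF, and UGGT1 (-0.04), which tags misfolded glycoproteins for another round of folding.

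Counted by array, 11 members had every Tet array below every untagged array, 9 of them folding genes (CALR, CANX, CRELD2, ERO1B, HYOU1, MANF, PDIA3, PDIA4 and PDIA6) together with OS9 and SSR1. Over all genes 7.46% stood apart in that direction. Among the 4944 genes in the brightest 25% of signals, where 26 members lie, the share was 8.33% and the median change 0.00, with 48.5% below zero. Of 12 folding genes with more than 1 probe set, 9 had all of them below zero, and PDIA3, P4HB and DNAJB9 were mixed.

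**Figure D1:**
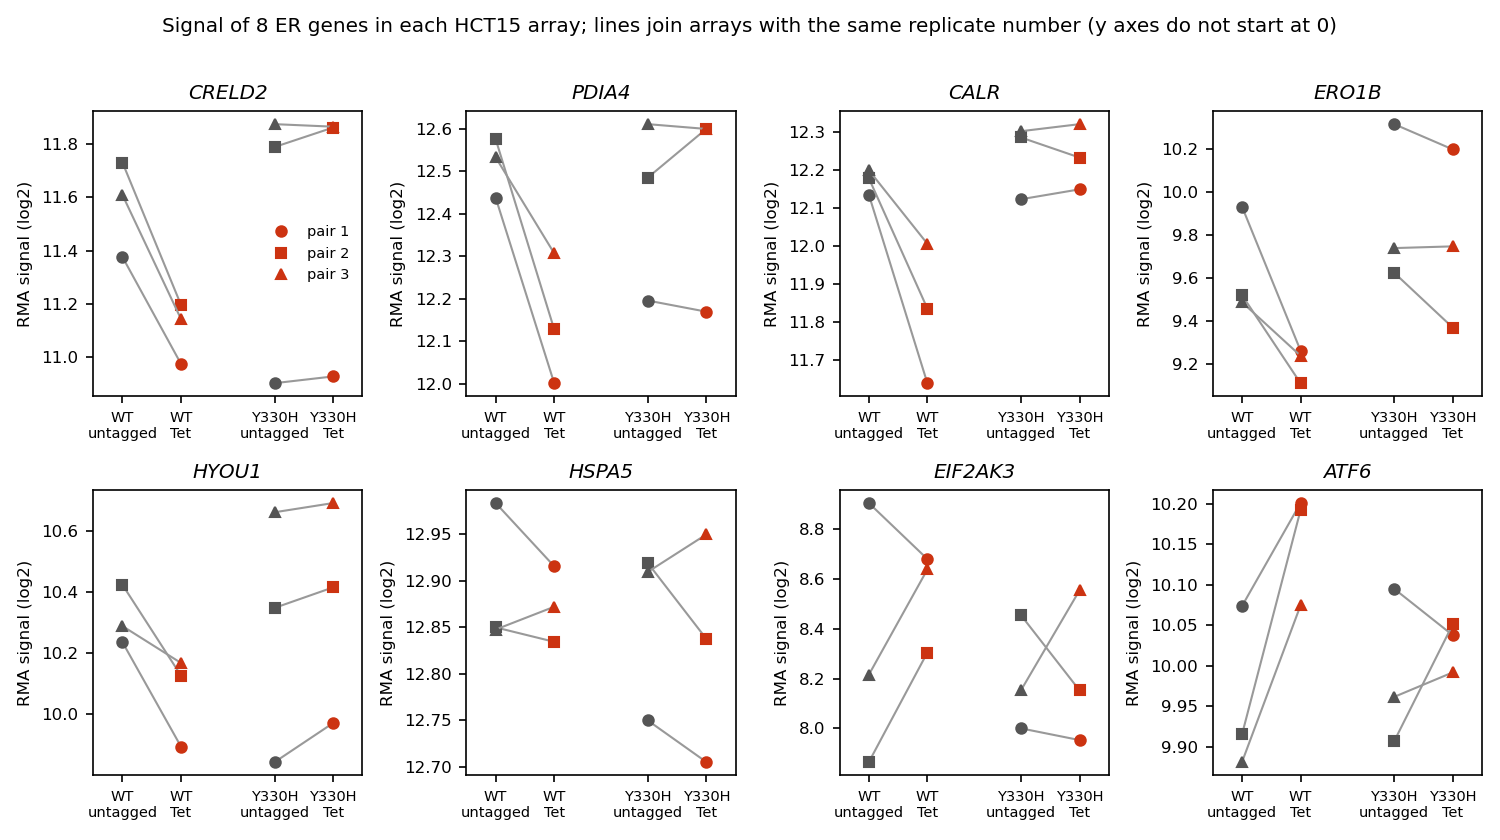
Log2 signal (y axis, not starting at 0) of 8 ER genes in each HCT15 array; grey points are untagged, red points are Tet arrays, and lines join arrays of 1 replicate number. In HCT15 WT the lines of CRELD2, PDIA4, CALR, ERO1B and HYOU1 all run down, those of HSPA5 are almost level, and those of EIF2AK3 run up in pairs 2 and 3 and down in pair 1.

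No degradation gene passed the test in HCT15 WT. DERL1, part of the membrane channel that draws proteins out of the ER, was the highest of them, with 11.16, 11.20 and 11.35 untagged and 11.53, 11.42 and 11.36 with Tet. The groups did not overlap but pair 3 differed by only 0.01, and the change of 0.20 ± 0.09 (SE) had a limma adjusted p of 0.508 (0.199 with the block). The other, dimmer probe sets of DERL1 gave 0.01, 0.05 and 0.06. OS9, a lectin that hands glycoproteins to the ubiquitin ligase, read 11.42, 11.27 and 11.30 untagged and 11.16, 11.02 and 11.12 with Tet, a change of -0.23 ± 0.10 (limma adjusted p = 0.488, and 0.0775 with the block).

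HERPUD1, a scaffold of the degradation complex, changed by 0.08, DERL2 by 0.08 and SELENOS, a selenoprotein that binds the VCP ATPase, by 0.02. DERL3 changed by -0.16, SEL1L, the partner of the ligase HRD1, by -0.12 and EDEM1, which recognises mannose-trimmed glycoproteins, by -0.02. That held for all 8 in both fits.

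The sensors and XBP1 were above zero without passing the test in the fits without and with the block. ATF6 read 10.07, 9.92 and 9.88 in untagged and 10.20, 10.19 and 10.07 in Tet arrays, with every pair up and a change of 0.20 ± 0.10 (SE; limma adjusted p = 0.557). All 4 of its probe sets were above zero. Together with DERL1 it was the only member with every Tet array above every untagged array. These 2 of the 32 members are a share close to that over all genes (6.41%).

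EIF2AK3 changed by 0.21 ± 0.23, but its pairs disagreed, and with array weights it was called at 0.59 (limma adjusted p = 0.0499). The untagged arrays read 8.91, 7.86 and 8.22 and the Tet arrays 8.68, 8.30 and 8.64, which gives -0.22 in pair 1 and 0.44 and 0.42 in the others. ERN1 showed the same order, with 9.67, 8.90 and 8.98 against 9.53, 9.29 and 9.27. XBP1 read 11.02, 10.94 and 10.99 untagged and 10.95, 11.21 and 11.12 with Tet, a change of 0.11 ± 0.15. All probe sets of ERN1 were above zero, whereas the other, dimmer probe sets of EIF2AK3 and XBP1 gave -0.10 and -0.02.

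The untagged array numbered 1 was therefore the one in which the sensors stood high. The mean of the 4 sensing genes was 9.92 there, against 9.40 and 9.52 in the other untagged arrays. That array also had the widest gap between the 3′ and 5′ control probes for ACTB, 1.18 on the log2 scale (0.93 in its Tet partner and 0.35 to 0.53 in the remaining HCT15 WT arrays), a sign of RNA quality. The part of this difference in the result was not tested. Without both arrays numbered 1, 15 of the 17 folding genes were below zero in the blocked fit and their median was -0.20.

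Set against each other, folding genes and the 12 degradation and sensing genes differed by -0.25 in their median changes. The difference was below zero in every pair, at -0.04, -0.40 and -0.12. The folding genes were below zero at the median in all pairs ( -0.14, -0.26 and -0.12), while the sensing genes had medians of -0.11, 0.33 and 0.24. SEC61B and SEC61A1, parts of the protein channel, changed by 0.13 and -0.03, and SSR1, a subunit of the associated TRAP complex, by -0.12. In the other inductions the difference between folding genes and degradation and sensing genes was -0.12 (HT115 WT), -0.03 (Y330H) and -0.02 (E314K). In HT115 WT it was also below zero at every replicate number (-0.05, -0.12 and -0.12), but -1e-04 with the mean of probe sets.

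**Figure D2:**
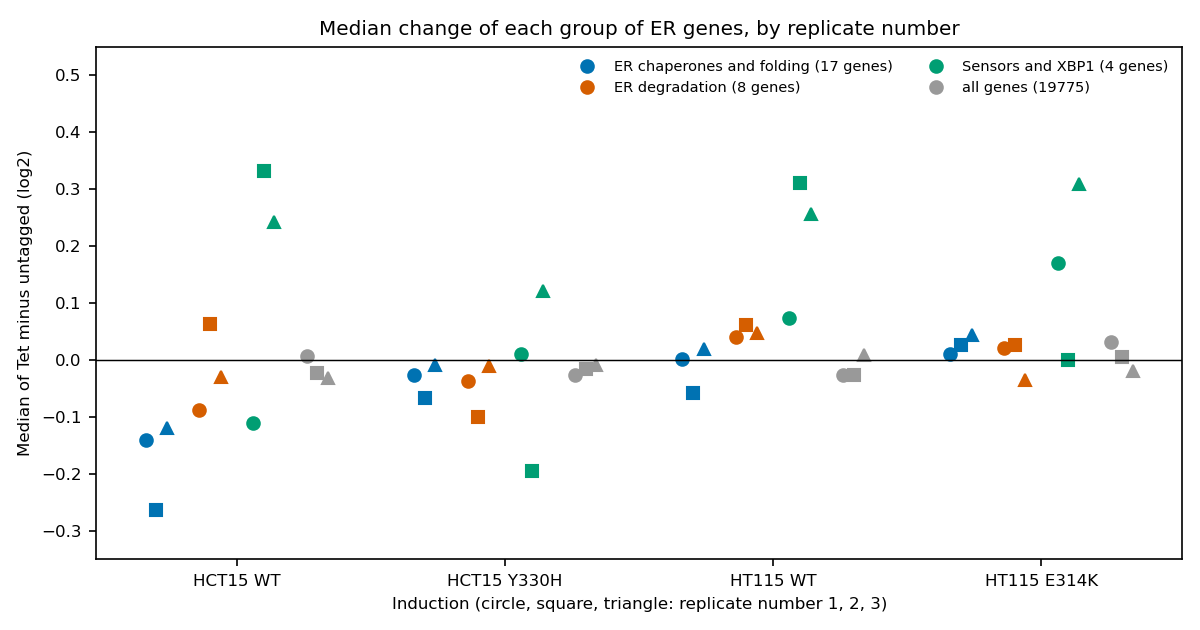
Median log2 change (Tet minus untagged, y axis) of 3 groups of ER genes and of all genes, for replicate numbers 1, 2 and 3 (circle, square, triangle) of each induction (x axis). In HCT15 WT the folding genes sit at -0.14, -0.26 and -0.12 with all genes near 0, and the 4 sensing genes spread from -0.11 to 0.33.

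Genes listed under the PERK and ATF4 branch lay above zero, unlike the chaperones, but PERK activity itself was not measured. Of 13 genes of the PERK and ATF4 branch 12 were above zero in HCT15 WT, with a median of 0.38. None was called without the block, and 7 rose in the blocked fit, where 3.14% of all genes rose. ATF3, a stress-induced ATF factor, changed by 1.59 (limma adjusted p = 0.216 without and 0.000247 with the block), PPP1R15A (GADD34), which reverses PERK's action on translation, by 0.79 (0.0713 and 0.0130) and CEBPB by 0.49 (0.576 and 0.0219). The other 4 were CHAC1 (0.94), SESN2 (0.59), DDIT3, which encodes CHOP (0.38), and TRIB3 (0.36). ATF3 is also a known target of JNK signalling, and its brightest specific probe set gave 0.53 (limma adjusted p = 0.168).

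The other lists showed few calls in HCT15 WT. Among 17 measured other ER folding enzymes 1 rose with the block, the thiol oxidase QSOX1 (0.39, limma adjusted p = 0.0439), and 11 were above zero, with a median of 0.05. Of the 17 other translocon and glycosylation genes 14 were below zero, with a median of -0.09 and none called. The 15 other degradation genes, 15 COPII export genes, 9 heat shock genes and 11 other sensors and ER factors had medians of 0.08, -0.03, 0.02 and -0.02, with none called in either fit. Goblet and secretory markers, which go with a large ER, summed to 494 to 1065 in untagged and 464 to 714 in Tet arrays, ranges that overlap; their part in the result was not tested.

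In HCT15 with the Y330H form, no ER gene passed the test. No gene of the 19775 was called (0% of all genes in limma's fit, with and without the block), although 614 genes, none of them a member, had an unadjusted p under 0.05. The folding genes had a median change of -0.02, with 10 below and 7 above zero. Member changes ran from -0.16 in DNAJB9, followed by SSR1 (-0.15) and ERO1B (-0.12), to 0.08 in HYOU1.

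CRELD2 shows the contrast with the wild-type form in single arrays. In Y330H it read 10.90, 11.79 and 11.87 untagged and 10.93, 11.86 and 11.86 with Tet, so array 1 was low on both sides and no pair differed by more than 0.07. CALR changed by 0.00 and PDIA4 by 0.03. SSR1 alone had every Tet array below every untagged array, at 12.24 to 12.39 against 12.43 to 12.50, beside 6.02% of all genes. By pair, 8 members were down in every Y330H pair, beside 17.1% of all genes. They were CANX, DNAJB9, MANF, P4HB, DERL2, SEL1L, SELENOS and SSR1. In HCT15 WT 16 members were, beside 21.3% of all genes.

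The sensing genes and HSPA5 lay near zero in Y330H. HSPA5 read 12.75, 12.92 and 12.91 untagged and 12.71, 12.84 and 12.95 with Tet (-0.03 ± 0.11, SE). ERN1 read 9.50, 9.28 and 9.28 against 9.73, 9.02 and 9.41 (0.04 ± 0.18). EIF2AK3 read 8.0, 8.45 and 8.15 against 7.95, 8.15 and 8.55 (0.02 ± 0.23). In each of the 3 genes the arrays of both groups overlapped.

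ATF6 read 10.09, 9.91 and 9.96 untagged and 10.04, 10.05 and 9.99 with Tet (0.04 ± 0.10), and XBP1 11.46, 10.91 and 11.04 against 11.53, 10.78 and 11.15 (0.01 ± 0.15). DNAJB9 had the lowest change of all members and HYOU1 and DNAJC3 the highest. DNAJB9, a co-chaperone that binds IRE1, read 10.83, 10.56 and 10.44 against 10.80, 10.19 and 10.35. HYOU1 read 9.84, 10.35 and 10.66 against 9.97, 10.42 and 10.69, and DNAJC3 10.90, 11.18 and 11.09 against 10.84, 11.26 and 11.28 (0.07 ± 0.15). HYOU1 was up in every pair, but by less than its untagged arrays differed among themselves.

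The WT and Y330H inductions of HCT15 were then compared with each other. Without the block 0 members were called (0.0607% of all genes were), and 2 members, CALR and PDIA4, had an unadjusted p under 0.05, as did 748 of the 19775 genes. With the block CRELD2 was called, at -0.50 ± 0.10 (SE; limma adjusted p = 0.0407), beside 0.956% of all genes and 0.283% in that direction. The call was lost when any 1 pair of HCT15 WT arrays was left out (limma adjusted p 0.0977, 0.205 and 0.0649 without pair 1, 2 and 3). For PDIA4 the difference was -0.40 (limma adjusted p = 0.108 with the block) and for CALR -0.34 (0.218), and 15 of the 17 folding genes were below zero, with a median of -0.12 beside 0.01 over all genes.

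**Figure D3:**
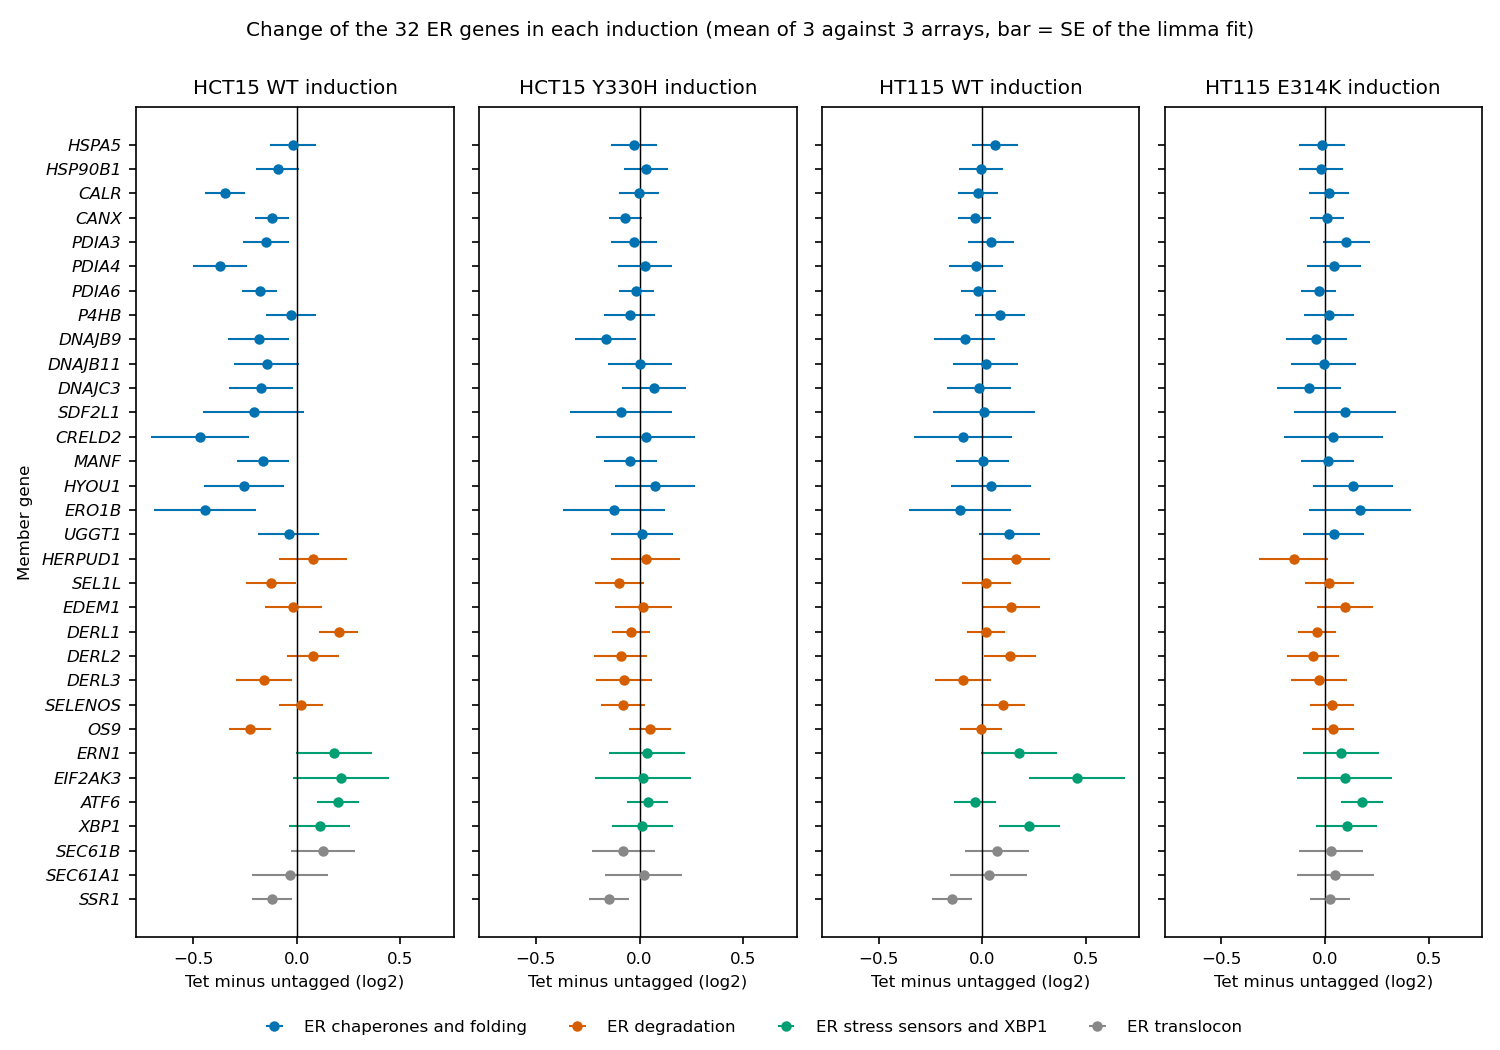
Log2 change (Tet minus untagged, x axis) of each of the 32 ER genes (y axis) in the 4 inductions; points are means of 3 against 3 arrays, bars are SE of the limma fit, and colour marks the role. All 17 folding genes (blue) lie left of zero in HCT15 WT, whereas in the other panels 6 to 10 of them do.

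In HT115 with wild-type MLK4 the folding genes were centred near zero. No member was called with or without the block, where limma called 0.147% (0.126% higher, 0.0202% lower) and 0.941% (0.753% higher, 0.187% lower) of all genes, and no member had an unadjusted p under 0.05 without the block. The 17 folding genes had a median change of -0.01, with 9 below and 8 above zero. CRELD2 changed by -0.09, PDIA4 by -0.03, CALR by -0.02 and HSPA5 by 0.06. Whether the 2 wild-type inductions differ in these genes was not tested.

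The sensing genes were again the highest of the groups, with a median of 0.20 and 3 of 4 above zero. All 4 were above zero with the mutant forms too, by 0.01 to 0.04 in Y330H and 0.08 to 0.18 in E314K. In HT115 WT EIF2AK3 read 6.86, 6.80 and 6.54 untagged and 7.51, 7.19 and 6.88 with Tet. Its change was 0.46 ± 0.23 (SE; limma adjusted p = 0.673), and 0.10 with the mean of its probe sets. XBP1 read 10.18, 9.99 and 9.94 untagged and 10.22, 10.31 and 10.26 with Tet, a change of 0.23 ± 0.15 (limma adjusted p = 0.828). Both stood apart by array, as did UGGT1, which makes 3 members beside 6.66% of all genes, and none stood apart downward (7.76%). Gaps between the highest untagged and the lowest Tet array were narrow. They lay at 9.686 against 9.688 in UGGT1, 6.86 against 6.88 in EIF2AK3 and 10.18 against 10.22 in XBP1.

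ATF6 was not higher in HT115 WT, with 8.78, 8.66 and 8.61 untagged and 8.70, 8.45 and 8.79 with Tet (-0.04 ± 0.10). ERN1 read 7.63, 7.78 and 7.86 against 7.74, 8.08 and 7.98 (0.18 ± 0.18), up in every pair but with overlapping groups. HSPA5 read 12.03, 11.86 and 11.78 against 12.12, 11.93 and 11.80. Goblet and secretory markers summed to 4424 to 4721 in untagged and 3410 to 4171 in Tet arrays of HT115 WT, without overlap, and their part in these values was not tested.

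The lowest changes in HT115 WT were those of SSR1 and ERO1B. SSR1 read 11.33, 11.53 and 11.48 untagged and 11.41, 11.42 and 11.06 with Tet (-0.15 ± 0.10), so the Tet array numbered 3 stood low. ERO1B read 6.45, 6.46 and 6.19 against 6.18, 6.26 and 6.33 (-0.11 ± 0.25). The PERK and ATF4 branch lay above zero in 12 of 13 genes, with a median of 0.33 and none called without the block. ATF3 changed by 1.55 (called with only the groups compared in the fit, limma adjusted p = 0.0118), SESN2 by 0.70 and DDIT3 by 0.61. The ATF3 value rests on its probe set: the gene's brightest specific probe set gave -0.15.

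In HT115 with the E314K form 0 members and 0 of all genes (0%) were called, and 313 genes, none of them a member, had an unadjusted p under 0.05. The folding genes had a median of 0.02 and the sensing genes of 0.10. ATF6 read 9.41, 9.56 and 9.33 untagged and 9.57, 9.58 and 9.68 with Tet, the only member whose groups did not overlap (3% of all genes stood apart upward). Its change was 0.18 ± 0.10, and the lowest change was that of HERPUD1, -0.15, which read 7.21, 7.06 and 7.40 untagged and 7.22, 6.88 and 7.11 with Tet.

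HSPA5 was level in E314K, at 12.26, 12.46 and 12.56 untagged and 12.25, 12.47 and 12.52 with Tet (-0.01 ± 0.11). ERN1 read 9.00, 8.75 and 8.52 against 8.96, 8.76 and 8.79 (0.08 ± 0.18), and EIF2AK3 7.42, 7.93 and 7.69 against 7.82, 7.44 and 8.06 (0.09 ± 0.23). XBP1 read 10.68, 10.83 and 10.79 against 10.86, 10.82 and 10.93 (0.10 ± 0.15). The arrays overlapped in all 4 genes. DNAJC3 changed by -0.08 and ERO1B by 0.17, the latter from 6.01, 5.21 and 6.14 to 6.48, 5.59 and 5.80. Between the 2 HT115 inductions no member was called (0 in limma's fit, beside 0.0152% of all genes, and 0 with the block, beside 0.157%, of which 0.152% higher and 0.00506% lower), and 0 had an unadjusted p under 0.05.

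Among the members, differences between the lines were larger than those in any induction. HT115 entered this comparison through 1 derivative, E314K, so line and derivative cannot be told apart on its side. In untagged arrays 16 of the 32 members differed between HCT15 (6 arrays of both derivatives) and HT115 E314K (3 arrays), 13 higher and 3 lower in HCT15. Over all genes limma called 37.6%, 21.2% as higher and 16.4% as lower. The block added MANF (0.28, limma adjusted p = 0.0319), which makes 17, beside 37.8% of all genes. Called higher were 8 of 17 folding genes, 1 of 8 degradation genes, 3 of 4 sensing genes and 1 of 3 translocon genes.

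HERPUD1 and ERO1B stood out. HERPUD1 read 11.23, 10.88 and 10.99 in HCT15 WT and 11.67, 11.05 and 11.08 in HCT15 Y330H, but 7.21, 7.06 and 7.40 in HT115 E314K. The difference of 3.92 ± 0.14 (SE; limma adjusted p = 1.64e-15) is a 15.2-fold higher signal in HCT15. The gene's other, dimmer probe set gave 0.57 and the mean of both 2.25.

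ERO1B read 9.93, 9.52 and 9.49 in HCT15 WT, 10.31, 9.62 and 9.74 in HCT15 Y330H and 6.01, 5.21 and 6.14 in HT115 E314K. The difference was 3.98 ± 0.21 (limma adjusted p = 1.32e-12), and its other probe set gave 3.63. The HT115 E314K arrays read this gene below their own medians and no detection calls were at hand, so no fold is given. On their own scale the untagged HT115 WT arrays read 6.62 to 6.87 for HERPUD1 and 6.19 to 6.46 for ERO1B. Neither gene passed the test in any induction.

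The promoters of these 2 genes are shown because their line difference was the widest of the members. Capitals mark the ERSE-II in HERPUD1, 117 bases before the start, and the ERSE in ERO1B, 243 bases before it and read on the strand opposite to the gene.
HERPUD1, chr16:56931892-56932141, plus strand: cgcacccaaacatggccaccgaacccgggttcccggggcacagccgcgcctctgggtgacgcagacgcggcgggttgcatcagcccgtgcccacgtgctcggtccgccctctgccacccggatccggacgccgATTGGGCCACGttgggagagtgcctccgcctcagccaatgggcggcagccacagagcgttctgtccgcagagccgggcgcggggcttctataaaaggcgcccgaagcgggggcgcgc
ERO1B, chr1:236281959-236282208, minus strand: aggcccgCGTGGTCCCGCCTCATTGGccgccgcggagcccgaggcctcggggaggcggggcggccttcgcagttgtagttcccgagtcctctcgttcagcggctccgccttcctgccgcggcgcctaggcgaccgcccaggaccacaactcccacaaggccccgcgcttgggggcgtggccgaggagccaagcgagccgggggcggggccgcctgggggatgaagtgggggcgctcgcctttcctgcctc
The other 6 folding genes with an ERSE and XBP1 differed less between the lines, by -0.04 in HSP90B1, -0.03 in CALR, 0.22 in CANX, 0.24 in PDIA6, 0.30 in XBP1, 0.45 in HSPA5 and 0.55 in CRELD2.

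The other folding genes called higher in HCT15 differed by 0.22 to 0.57. HSPA5 lay between 12.75 and 12.98 in HCT15 and between 12.26 and 12.56 in HT115 E314K, without overlap, a difference of 0.45 ± 0.10 (limma adjusted p = 0.000681). Its other, dimmer probe set gave 1.39 and the mean of both 0.92. DNAJC3, an inhibitor of PERK and co-chaperone, differed by 0.57 and CRELD2 by 0.55, PDIA3 by 0.42, DNAJB9 by 0.39, PDIA6 by 0.24 and CANX by 0.22. Arrays did not overlap for DNAJC3 (10.80 to 11.18 in HCT15, 10.18 to 10.62 in HT115 E314K), PDIA3 (12.12 to 12.41 and 11.68 to 12.07), DNAJB9 (10.31 to 10.83 and 9.99 to 10.23), PDIA6 or CANX. For CRELD2 the arrays overlapped, and its call was lost in 8 of 18 alternative fits. The calls of PDIA6 and DNAJB9 were lost in 3 and 1 of them and that of CANX in 4, and CANX turned to -0.05 on its brightest specific probe set.

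The 3 members called lower in HCT15 serve glycoprotein quality control and degradation. UGGT1 lay between 9.56 and 10.03 in HCT15 and between 10.41 and 10.69 in HT115 E314K, a difference of -0.74 ± 0.13 (limma adjusted p = 6.88e-05), and all 5 of its probe sets were below zero. SEL1L ran from 8.98 to 9.64 and from 10.17 to 10.25 (-0.83 ± 0.10, limma adjusted p = 9.24e-07), and OS9 from 11.22 to 11.59 and from 11.73 to 11.96 (-0.48 ± 0.09, limma adjusted p = 0.000129). The groups did not overlap in any of the 3 genes, and the other probe sets of SEL1L and OS9 gave the same direction.

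**Figure D4:**
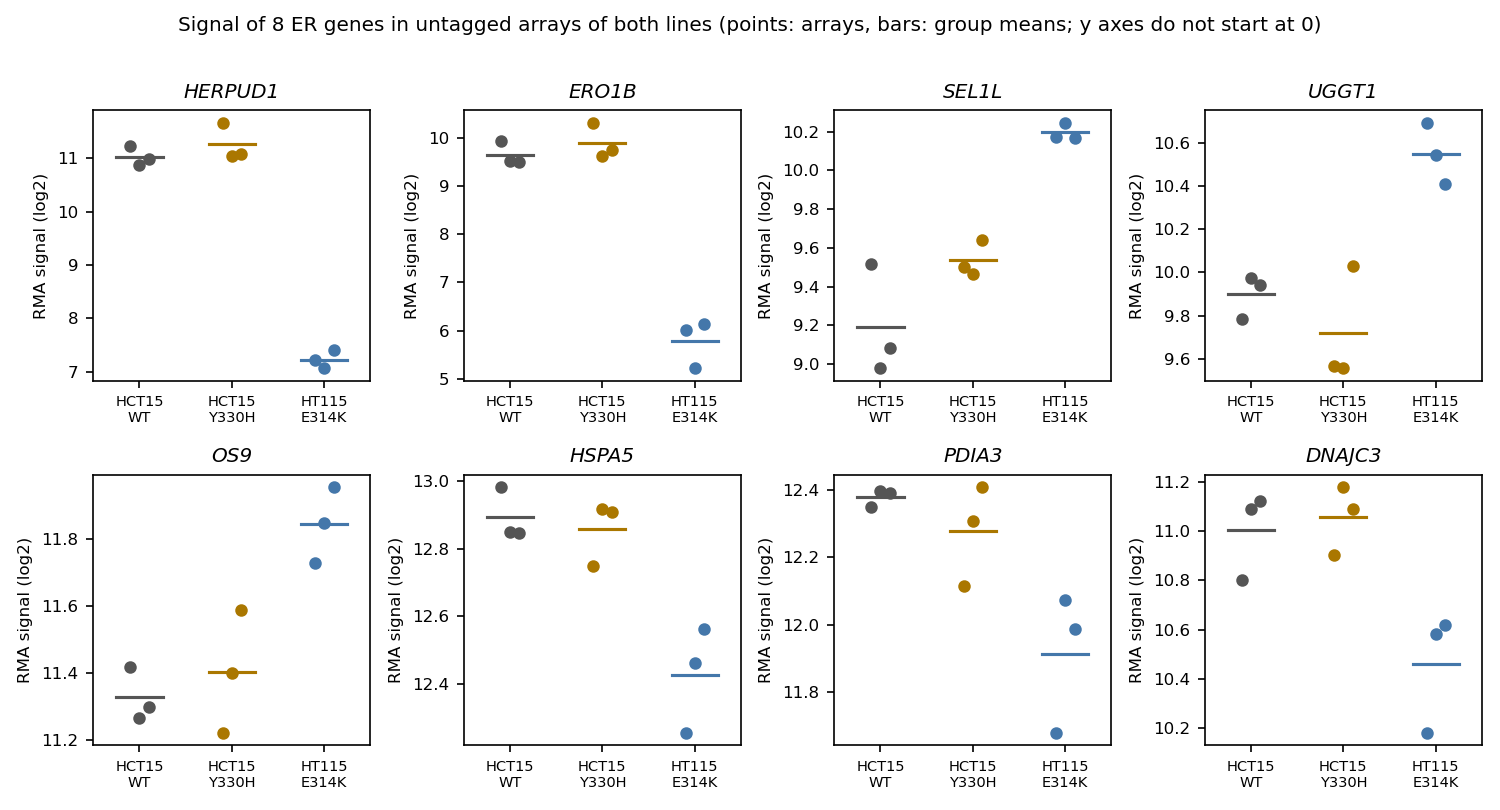
Log2 signal (y axis, not starting at 0) of 8 ER genes in the untagged arrays of HCT15 WT, HCT15 Y330H and HT115 E314K; points are arrays and bars are group means. HERPUD1 and ERO1B are about 4 log2 units higher in HCT15, and SEL1L, UGGT1 and OS9 are higher in HT115 E314K.

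All 3 sensors were called higher in HCT15, ERN1 by 0.51 (limma adjusted p = 0.0138), EIF2AK3 by 0.59 (0.0240) and ATF6 by 0.54 (3e-05). ATF6 ran from 9.88 to 10.09 in HCT15 and from 9.33 to 9.56 in HT115 E314K. For ATF6 the direction depends on the probe set, since its other 3 gave -0.47, -0.52 and -0.80, and the mean of all 4 was called lower (-0.31, limma adjusted p = 0.0143). The calls of EIF2AK3 and ERN1, whose arrays overlapped, were lost in 8 and 1 of 18 alternative fits. XBP1 was higher by 0.30 and missed the threshold (limma adjusted p = 0.0766), though its arrays did not overlap. SSR1 was higher by 0.35 (0.00175).

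Counted by array, 14 members (43.8%) stood apart between the lines, 11 of them with HCT15 above, beside 30.5% of all genes. The PERK and ATF4 branch was higher in 9 of 13 genes and lower in none, led by the lipoprotein receptor VLDLR (3.00), SESN2 (1.72) and ATF4 itself (0.67). Among 11 other sensors and ER factors 4 were higher and 3 lower. The protease MBTPS2, which cuts ATF6, was higher by more than 1 log2 unit, while ERN2, the IRE1 form of mucous epithelium, and CREB3L1 were lower by the differences -2.38 and -2.69. The sizes depend on the probe set for MBTPS2 (0.70 with the mean of its probe sets) and for ERN2 (-0.31 on its brightest specific probe set).

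Secretory markers also differed in this comparison. The 8 goblet and secretory markers summed to 494 to 3562 in untagged HCT15 and to 10588 to 10980 in untagged HT115 E314K, and 3 macrophage markers to 203 to 348 and to 12677 to 14326, the latter from LYZ, which Paneth cells also make. On their own scale the untagged HT115 WT arrays summed to 4424 to 4721 for the goblet and secretory markers and to 823 to 959 for the macrophage markers. Whether the macrophage sum goes with the line or with the E314K derivative was not tested. The part of these markers in the line difference of the ER genes was not tested either.

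The 2 HCT15 derivatives differed in 2 of the 32 members before any tetracycline. That share is close to the 5.97% of all genes called (3.38% higher and 2.59% lower). The block gave the same 2 members, beside 6.67% of all genes (3.79% higher and 2.88% lower). DERL2 read 10.01, 10.56 and 10.49 in untagged WT and 10.88, 10.92 and 10.98 in untagged Y330H, a difference of -0.57 ± 0.13 (limma adjusted p = 0.00790). P4HB, the founding disulfide isomerase, read 10.84, 11.08 and 11.06 and 11.23, 11.55 and 11.60, a difference of -0.47 ± 0.12 (limma adjusted p = 0.0239). The arrays of the derivatives did not overlap in either gene. The call was lost in 3 of 15 alternative fits for DERL2 and in 6 for P4HB, in both genes when the fit held only the groups compared. Goblet and secretory markers summed to 494 to 1065 in untagged WT and to 1164 to 3562 in untagged Y330H; their part was not tested.

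Read against the promoters, the 11 members with an ERSE or ERSE-II had a median change of -0.18 in HCT15 WT, with 9 below zero, and the 18 members with a promoter but no such site had -0.04, with 12 below zero. The split goes with role, since 9 of the 11 are folding genes and 7 of the 18. Among folding genes alone the medians were -0.21 in the 9 with a site and -0.16 in the 7 without, all of them below zero. In the other inductions the medians with and without a site were -0.01 and 0.03 (HT115 WT), 0.00 and 0.01 (Y330H) and 0.02 and 0.03 (E314K). The 3 genes that fell include 1 without a site, PDIA4. The site-bearing HSPA5 changed by -0.02, and HSP90B1 by -0.09 on its brightest probe set and -0.33 on the other. An AP-1 motif (TGANTCA), the element read by JUN, lay in 1 member promoter, that of HSPA5, beside 6.57% of 35116 promoters.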

How the data were processed

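RNA from 24 samples was hybridised to Affymetrix U133 Plus arrays. The deposited data hold 1 log2 signal per probe set and array. The authors made them by RMA, run in Affymetrix Power Tools, per the labels' list of tools from the submitters; versions and detection calls were not given in the sources used here. RMA draws the arrays of a set to 1 distribution, so a shift shared by most genes would not show.

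Of 54675 probe sets 41097 had a single gene symbol, 1801 several and 11777 none, and the brightest per gene over all arrays gave 19775 genes, with no filter on dim ones. limma 3.58.1 in R 4.3.3 fitted 8 group means over the 24 arrays (16 residual and 4.83 prior degrees of freedom). Changes are Tet minus untagged, errors are standard errors of that fit, and adjusted p is Benjamini-Hochberg over all genes, called under 0.05. The blocked fit adds replicate numbers as pairs in every derivative, HT115 included (8 residual degrees of freedom). It is printed beside HCT15 results because deviations of same-numbered HCT15 arrays correlated at 0.31 to 0.767. In HT115 they were 0.226, 0.188 and -0.00453 (WT) and 0.594, 0.051 and 0.317 (E314K), not all over 0.1. Whether HT115 numbers mark pairs is therefore unclear, although the blocked fit treats them as pairs. Its error estimate, also for HCT15, draws on all 24 arrays. The line comparison averages both HCT15 derivatives. It and the comparison of untagged HCT15 derivatives used a random block in place of pair effects (16 residual degrees of freedom).

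Promoters are the 250 bases before RefSeq starts (GRCh38.p14). Members and gene lists were chosen with earlier results of these data known. Genes were named by rule: called members, the 4 sensing genes and HSPA5 everywhere, the widest rises and falls per induction, and the 3 genes with the lowest p of a list; others were named after their values were seen. Only the HCT15 WT test was tried on simulated data with known changes, without and with the block. Pair strength was set alike in every derivative there, so the simulation does not bear on the HT115 calls. Alternatives were the block, probe set choice, centring, brighter genes alone, array weights, an intensity trend, only the groups compared, and arrays left out.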

Additional observations from a re-analysis of the deposited data

Results flagged for a closer look

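CRELD2 differed between the HCT15 inductions in the blocked fit, where its change with WT minus that with Y330H was -0.4964 on the log2 scale (limma adjusted p = 0.0407). HYOU1 was down in every HCT15 WT pair and up in every Y330H pair. Its difference of -0.3285 did not pass limma's test (adjusted p = 1.00 without the block and 0.301 with it).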

How the results depend on the processing

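Each group had 3 arrays, so leaving out 1 turned the sign of several small changes given below, and RMA signals cannot show how far a dim gene lies above background. Members called in the HCT15 WT induction were 0 without the block, 3 with it, 4 with array weights (3 lower, and EIF2AK3 higher), 1 with an intensity trend and 0 to 1 with 1 array left out. In alternatives added after seeing the data, the blocked count was 1 without pair 1, 0 without pair 2 and 3 without pair 3. For HCT15 WT minus Y330H the block gave 1 member and 0 without any 1 pair. Between untagged HCT15 derivatives the count of 2 became 1 with the mean of probe sets (neither DERL2 nor P4HB, and in the other direction), 6 with array weights, 0 with only the groups compared in the fit, and 1 to 2 with 1 array left out. In HT115, 4 of 6 same-numbered pairs correlated over 0.1 and not every array did best with its own number, which leaves pairing there unclear. With the block 5 of 13 genes of the PERK and ATF4 branch rose in HT115 WT: ATF3 (limma adjusted p = 0.000708), DDIT3 (0.00764), SESN2 (0.0145), CHAC1 (0.0416) and TRIB3 (0.0495). The block changed no other call of a member in an induction. Over all genes, calls in the HCT15 WT induction numbered 138, against 961 with the block, 1438 with array weights, 6 with only the groups compared, 35 without both arrays numbered 1 and 50 to 257 with 1 array left out. In HT115 WT they were 29, against 186, 100 with weights and 8 with the brighter genes alone in the fit. For HCT15 WT minus Y330H they were 12, against 189 with the block, 41 with weights and 1 with only the groups compared. For HT115 WT minus E314K they were 3, against 31 with the block, and between untagged HCT15 derivatives 1181, against 3728 with weights and 170 with only the groups compared. The cause of these moves was not tested.

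The median of folding genes minus that of degradation genes and sensors stayed below zero in HCT15 WT in all alternatives run (-0.2773 to -0.1699). In HT115 WT it was -1e-04 with the mean of probe sets and -0.1545 to -0.0341 with 1 array left out. In Y330H the values were 0.0203 and -0.0817 to 0.0726, and in E314K leaving out arrays gave -0.0549 to 0.0567.

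Signs turned in these cases, of which only ATF6 and CANX between the lines were called in the reported fit. With array weights HSPA5 was 0.014 (HCT15 WT) and 5e-04 (Y330H), and EIF2AK3 was -0.0221 (E314K). Without both HCT15 WT arrays numbered 1, HSPA5 was 0.0045. With the mean of probe sets, Y330H gave DNAJC3 -0.0088, EIF2AK3 -0.0512 and XBP1 -0.0762, E314K gave HSPA5 0.0764, DNAJC3 0.0542, HERPUD1 0.0058 and EIF2AK3 -0.0574, and ATF6 between the lines was -0.3143, called in that direction (limma adjusted p = 0.0143). With gene-specific probe sets, ATF3 in HT115 WT was -0.1528, DNAJC3 was -0.0246 (Y330H) and 0.0538 (E314K), and CANX between the lines was -0.0548. With 1 array left out, HCT15 WT gave HSPA5 -0.0427 to 0.0253 and EIF2AK3 -0.0192 to 0.5012. HT115 WT gave HSPA5 -0.0249 to 0.1397 and ATF6 -0.1087 to 0.0655. Y330H gave HSPA5 -0.0882 to 0.0343, DNAJC3 -0.0083 to 0.2129, HYOU1 -0.1454 to 0.2691, ERN1 -0.1343 to 0.218, EIF2AK3 -0.1499 to 0.1511, ATF6 -0.0014 to 0.0926 and XBP1 -0.174 to 0.1996. E314K gave HSPA5 -0.0994 to 0.0683, DNAJC3 -0.2177 to 0.0953, ERO1B -0.1155 to 0.3538, ERN1 -0.039 to 0.2005 and EIF2AK3 -0.0496 to 0.2597.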
